A study of Mus musculus with 6 samples.

Results

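Genes of the mesenchymal transition were followed in endothelial cells that had been sorted from mouse B16F0 melanomas after treatment with 15C4 or control IgG. The 9 genes were chosen by symbol, out of 24421 symbols counted, and fall into 3 roles: the transcription factors Snai1, Snai2, Twist1, Zeb1 and Zeb2, the cadherins Cdh1 and Cdh2, and the mesenchymal markers Vim and S100a4. RNA sequencing gave 3 libraries of 15C4-treated tumours and 3 of IgG-treated tumours. All mice were of the C57BL/6 strain, carried subcutaneous tumours of B16F0, a transplantable mouse melanoma line, for 17 days, and received 50 mg/kg of antibody every 3 days. 15C4 is a function-blocking antibody against LRG1, a secreted glycoprotein that modifies TGF-beta signalling in vessels. The labels do not give the age of the mice, the sort markers or the number of animals behind each library. The p-values therefore describe the scatter of these 6 libraries alone, and some of it may be technical.

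In an epithelial or endothelial to mesenchymal transition, cells loosen their junctions and take on a motile, matrix-producing state. Zinc finger repressors of the SNAI and ZEB families, with the basic helix-loop-helix factor TWIST1, bind E-box sequences and repress junction genes such as Cdh1, while N-cadherin, vimentin and S100A4 are used as markers of the mesenchymal state. In tumour vessels TGF-beta is a known inducer of this programme, and the same factors also act in the melanocyte lineage, where ZEB2 and SNAI2 belong to the differentiated state.

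Melanocyte markers were abundant in every library, so no level given here can be assigned to endothelial cells alone. Levels are given as CPM, the count scaled to the library total. The 13 melanocyte markers added up to between 24626 and 28491 CPM in the 15C4 libraries, against 24213 to 29359.7 CPM in the IgG libraries. All 18 pan-endothelial markers were detected, and their sum was 1465, 3104 and 1531 CPM in 15C4 1, 2 and 3, against 1784, 2580.4 and 211 CPM in IgG 1, 2 and 3. IgG 3 thus held few endothelial transcripts, with Cdh5 at 46.3 CPM, against 505 to 1240 CPM in the other libraries. Total counts were 5175600 to 19572202 per library. Of the genes tested, 13.8% were without a count in 15C4 3, while in each other library the share was 0.278% to 4.55%. Lrg1 itself had 0, 65 and 0 counts in the 15C4 libraries, against 4, 190 and 0 in the IgG libraries. In such bulk samples, fewer cells of a type and less RNA per cell cannot be told apart.

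Promoter sequences of 3 of the genes are shown because their genes differed in how well they could be measured: S100a4 was counted in every library, Snai1 lay close to the detection limit, and Twist1 had no counts. Each is the 250 bases before the RefSeq start on GRCm38.p6, printed 5′ to 3′ on the gene's strand, which is plus in all 3 cases. They lie at chr3:90603520-90603769 (S100a4), chr2:167537945-167538194 (Snai1) and chr12:33957421-33957670 (Twist1). Capitals mark the E-box CAGGTG or its reverse complement CACCTG, the core that SNAI and ZEB factors bind, and the TATA-type motif TATAAA or its reverse complement TTTATA.
S100a4: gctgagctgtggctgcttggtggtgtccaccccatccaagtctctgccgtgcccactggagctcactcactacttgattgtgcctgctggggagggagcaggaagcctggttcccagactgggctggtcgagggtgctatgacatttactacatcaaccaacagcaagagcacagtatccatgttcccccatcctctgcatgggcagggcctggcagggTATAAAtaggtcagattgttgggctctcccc
Snai1: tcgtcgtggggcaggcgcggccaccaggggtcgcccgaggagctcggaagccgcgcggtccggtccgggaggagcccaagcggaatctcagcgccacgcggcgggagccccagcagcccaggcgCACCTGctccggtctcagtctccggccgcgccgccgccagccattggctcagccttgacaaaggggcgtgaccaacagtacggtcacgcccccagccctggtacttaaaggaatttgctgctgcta
Twist1: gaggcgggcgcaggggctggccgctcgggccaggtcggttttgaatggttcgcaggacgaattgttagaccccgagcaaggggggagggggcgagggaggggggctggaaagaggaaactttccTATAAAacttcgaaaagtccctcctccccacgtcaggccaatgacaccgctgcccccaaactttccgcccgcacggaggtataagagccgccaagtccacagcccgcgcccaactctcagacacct
The E-box was found in the Snai1 window, starting 126 bases before the start, and in neither of the other two. TATAAA was found 31 bases before the start in S100a4 and 126 bases before it in Twist1. Of 32851 RefSeq promoter windows of this length, 17.2% held the E-box on either strand and 12.4% held TATAAA. Of the 9 genes, 5 had a window in the table. A match describes these letters only and does not show that a factor was bound.

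None of the 9 genes passed the test between 15C4 and IgG (edgeR quasi-likelihood test with Benjamini-Hochberg adjustment over 11144 tested genes, adjusted p = 0.9997 for each of the 8 fitted). Over all tested genes, 0 passed, a background of 0%, and 288 genes, or 2.58%, had an unadjusted p under 0.05, none of the 8 among them. Of the 8 fitted genes, 4 had fold changes above 0 and 4 below, with a median log2 fold change of -0.02, against 0.01 over all tested genes, where 50.7% were above 0. This even split rested on single libraries: without 15C4 2, 2 of the 8 were above 0 with a median of -0.67, and without 15C4 3, 5 were above 0 with a median of 0.22. With sample weights in limma-voom, 6 were above 0 with a median of 0.17. DESeq2 called 26 genes, or 0.233%, and none of the 9, though it gave Snai1 no adjusted p. The authors' deposited table lists 507 genes with an adjusted p under 0.05, or 3.59% of those given one, and none of the 9 is among them. Their fit may not be like the DESeq2 fit here. It gives 14112 genes an adjusted p, and it gives a fold change to Twist1, which had 0 counts in these libraries.

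**Figure D1:**
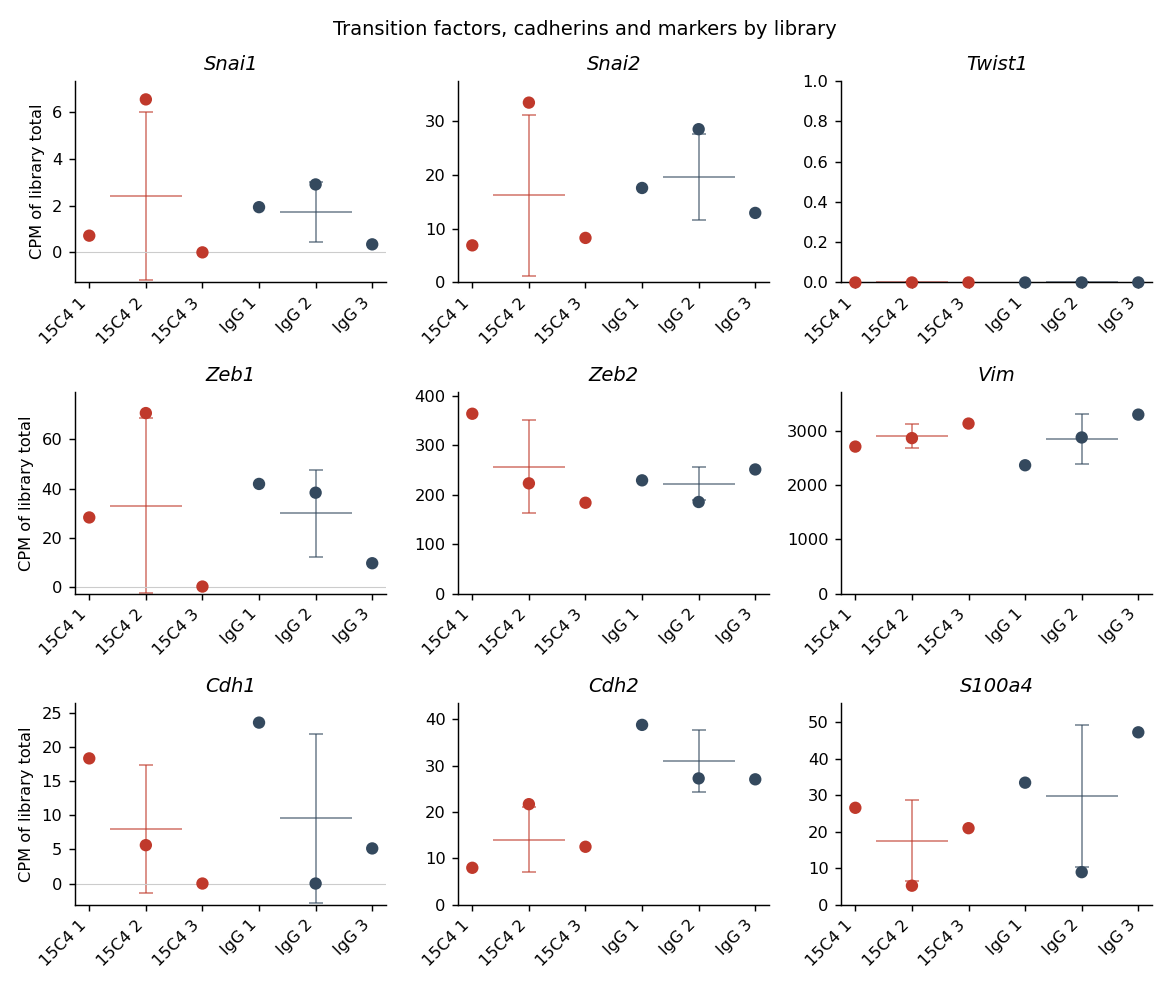
Level of each of the 9 genes in the 6 libraries, in CPM of the library total, with 15C4 in red and IgG in dark blue. Points are libraries, and horizontal and vertical bars give the group mean and SD (n = 3). The groups are separate for Cdh2 alone, with 7.98 to 21.7 CPM in 15C4 and 27.1 to 38.8 CPM in IgG. That is 12.5% of the 8 fitted genes, near the 9.52% of all tested genes that were separate. All Twist1 values are 0.

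Among the repressors, Zeb2 was the steadiest. It had 364, 223 and 184 CPM in the 15C4 libraries, against 229, 185 and 251 CPM in the IgG libraries. 15C4 1 was the highest, the other 5 lay close together, and the groups overlapped. The means were 257 ± 94.7 CPM under 15C4 and 222 ± 33.5 CPM under IgG (SD, n = 3 each), a fold of 1.21 with a 95% interval from 0.707 to 2.06. The log2 fold change of 0.27 (SE 0.34) became 0.03 when 15C4 1 was left out. Zeb2 (GRCm38 chromosome 2, 44983632 to 45117395, minus strand) shares 653 of its 19942 exon bases with the antisense gene Zeb2os. Zeb2os had 12, 11 and 0 counts in the 15C4 libraries, against 10, 49 and 146 in the IgG libraries. The strand setting of the counting is not given in the sources used here, so reads of the shared stretch cannot be told apart.

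Zeb1, the other ZEB repressor, varied far more. It had 28.3, 70.7 and 0.313 CPM in the 15C4 libraries, against 41.9, 38.4 and 9.77 CPM in the IgG libraries. The highest and the lowest value both came from the 15C4 group. The lowest rested on 2 counts in 15C4 3, with a 95% counting interval of 0.0379 to 1.13 CPM. 15C4 2 was above 15C4 3 by a ratio of 226 (95% counting interval 62.4 to 1867), and IgG 3, the next lowest library, was above it by a ratio of 31.2 (8.45 to 261). Group means were 33.1 ± 35.4 CPM under 15C4 and 30.02 ± 17.6 CPM under IgG (SD, n = 3 each). The log2 fold change was 0.22 with an SE of 1.30, and it was -1.07 without 15C4 2 and -0.19 without IgG 3. The spread within groups, as an SD of log2(CPM + 1), was 2.28 for Zeb1 and 0.39 for Zeb2, with a median of 0.83 over all tested genes.

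Compared per kilobase of exon, Zeb2 exceeded Zeb1 in all 6 libraries. The ratio was 6.61, 1.63 and 302 in the 15C4 libraries, where 302 rests on the 2 counts of Zeb1 in 15C4 3 (95% counting interval 83.5 to 2500). In the IgG libraries it was 2.81, 2.49 and 13.2. The lowest ratio was in 15C4 2, the library with the largest pan-endothelial sum. All such intervals hold counting error alone, because reads copied by PCR and not tagged with molecular identifiers are not independent molecules.

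Snai2, the SLUG repressor of junction genes and a factor of neural crest and melanocyte cells, was present in every library at low level. It had 6.90, 33.5 and 8.29 CPM in the 15C4 libraries, against 17.6, 28.5 and 12.9 CPM in the IgG libraries. 15C4 2 was the highest and the other 15C4 libraries were the lowest of the 6, so the groups overlapped. Means were 16.2 ± 15.0 CPM under 15C4 and 19.7 ± 8.0003 CPM under IgG (SD, n = 3 each). Its log2 fold change was -0.16 (SE 0.87). The sign turned without 15C4 1 (0.22), 15C4 3 (0.12) or IgG 2 (0.18), and the value was -1.25 without 15C4 2.

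Snai1, the SNAIL repressor of Cdh1, lay close to the limit of detection. It had 6, 128 and 0 counts in the 15C4 libraries, or 0.714, 6.54 and 0 CPM, and 10, 28 and 4 counts in the IgG libraries, or 1.93, 2.90 and 0.343 CPM. 15C4 2 was the highest, and the 0 in 15C4 3 allows a level of up to 0.469 CPM. Its log2 fold change was 0.61 with an SE of 1.90, and it was -2.18 without 15C4 2. Per kilobase, Snai2 exceeded Snai1 in every library, by 7.75 and 4.10 in 15C4 1 and 2 and at least 14.2 in 15C4 3, taking 3 counts as the floor, against 7.30, 7.88 and 30.3 in IgG 1, 2 and 3.

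Twist1 (chromosome 12, 33957671 to 33959829) had 0 counts in all 6 libraries and could not be tested. Depending on depth, 0 counts allow up to 0.153 to 0.469 CPM in the 15C4 libraries, against up to 0.257 to 0.580 CPM in the IgG libraries. Its paralogue Twist2 had 3 counts in IgG 1 and none elsewhere, and Snai3, the third SNAI gene, had 1 count in IgG 1.

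**Figure D2:**
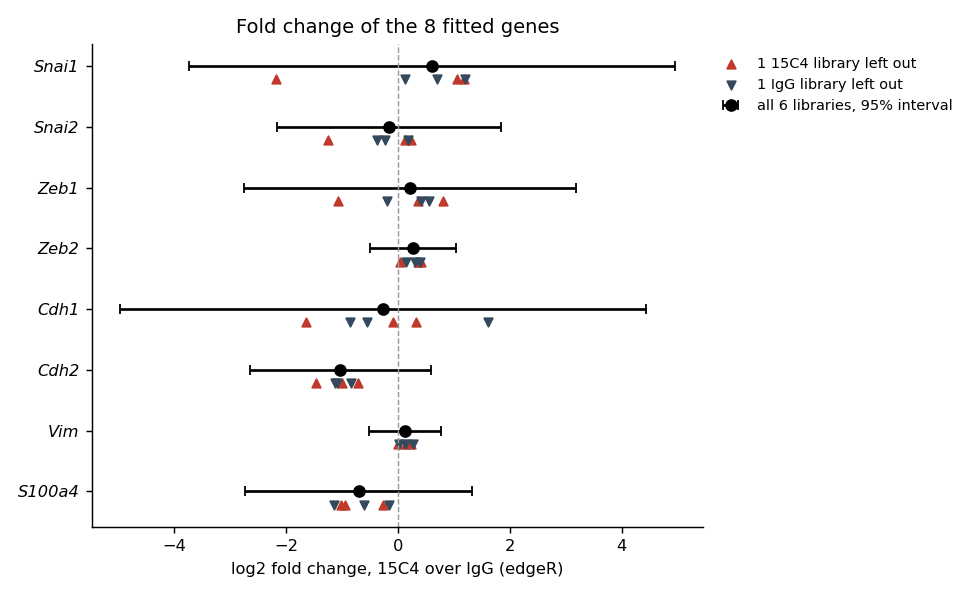
Log2 fold change of the 8 fitted genes, 15C4 over IgG, from edgeR. Black points and bars give the fit of all 6 libraries with its 95% interval, and triangles give the fits with 1 library left out, red for a 15C4 and dark blue for an IgG library. Every interval includes 0, Vim and Zeb2 have the narrowest, and Cdh2 and S100a4 stay below 0 with any library left out.

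N-cadherin, encoded by Cdh2, joins mesenchymal, neural and melanoma cells and is also found on endothelial cells. It was the 1 gene of the 8 whose groups did not overlap, where 9.52% of all tested genes were separate in this way. The libraries had 7.98, 21.7 and 12.5 CPM in 15C4 and 38.8, 27.3 and 27.1 CPM in IgG. All 3 values in 15C4 lay below the lowest IgG value, and the same held with TMM, RLE and upper quartile scaling. Means were 14.1 ± 7.0001 CPM under 15C4 and 31.1 ± 6.73 CPM under IgG (SD, n = 3 each). The log2 fold change was -1.03 (SE 0.71, unadjusted p = 0.182, adjusted p = 0.9997 in edgeR's quasi-likelihood test), so the difference did not pass. The fold was 0.490 with a 95% interval from 0.160 to 1.502. With each library left out in turn it lay between -1.47 and -0.71 on the log2 scale. The authors' deposited table, whose log2 fold change runs IgG over 15C4, gives 0.98 with a p of 0.184 and an adjusted p of 0.647.

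The markers of other cells that carry N-cadherin were read beside this difference. The melanocyte sums overlapped between the groups, as given above. Fibroblast markers, 10 in all, added up to 0.833, 6.34 and 210 CPM in the 15C4 libraries, against 112, 109 and 8.06 CPM in the IgG libraries. The markers did not move together, and Lum alone gave 151 of the 210 CPM in 15C4 3. Col1a1 had 0, 3 and 1 counts in the 15C4 libraries, against 63, 5 and 1 in the IgG libraries. Col3a1 had 1, 1 and 5 counts in the 15C4 libraries, against 132, 13 and 1 in the IgG libraries. Pericyte and smooth muscle markers, also 10, added up to 67.7, 63.0 and 84.3 CPM in the 15C4 libraries, against 31.5, 103 and 10.5 CPM in the IgG libraries. Neither sum separated the groups, though the fibroblast sum rested on different genes in different libraries. Their part in the level of Cdh2 was not tested.

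E-cadherin, encoded by Cdh1 (chromosome 8, 106603351 to 106670246), is the epithelial cadherin and the classical target of the repressors. It had 18.3, 5.62 and 0 CPM in the 15C4 libraries, against 23.6, 0 and 5.14 CPM in the IgG libraries. Each group held 1 library without a count, 15C4 3 and IgG 2, which allow up to 0.469 and 0.311 CPM. For Cdh1 the log2 fold change was -0.27 with an SE of 2.06, and it was 1.60 without IgG 1 and 0.33 without 15C4 3. Epithelial cells left little trace beside it. Epcam had 0 counts in the 15C4 libraries, against 1, 1 and 0 in the IgG libraries, and 6 of the 7 keratinocyte markers were at 0 in all libraries. The sum of the keratinocyte markers was 0 CPM in each 15C4 library, against 0.386, 4.46 and 0 CPM in IgG 1, 2 and 3.

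Set against the endothelial cadherin, N-cadherin was the minor species. Cdh5, which encodes VE-cadherin of endothelial junctions (chromosome 8, 104101625 to 104144511), exceeded Cdh2 per kilobase 121-fold, 110-fold and 149-fold in the 15C4 libraries. In the IgG libraries the ratio was 30.8, 84.5 and 3.28. The ratio is no independent measure, since the Cdh2 libraries alone were already separate between the groups. Its lowest value came from IgG 3, whose Cdh5 level was low while its Cdh2 level of 27.1 CPM was close to that of IgG 2. Cdh5 itself was at 905 ± 372 CPM under 15C4 and 624 ± 577 CPM under IgG (SD, n = 3 each) and did not pass (log2 fold change 0.67, SE 0.89; 0.14 without IgG 3 and 1.54 without IgG 2). Between the other cadherins the balance varied, with Cdh2 over Cdh1 per kilobase at 0.247, 2.19 and at least 15.1 in 15C4 1, 2 and 3, against 0.934, at least 49.7 and 2.99 in IgG 1, 2 and 3. The bounds belong to the libraries without a count of Cdh1 and take 3 counts as its floor.

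**Figure D3:**
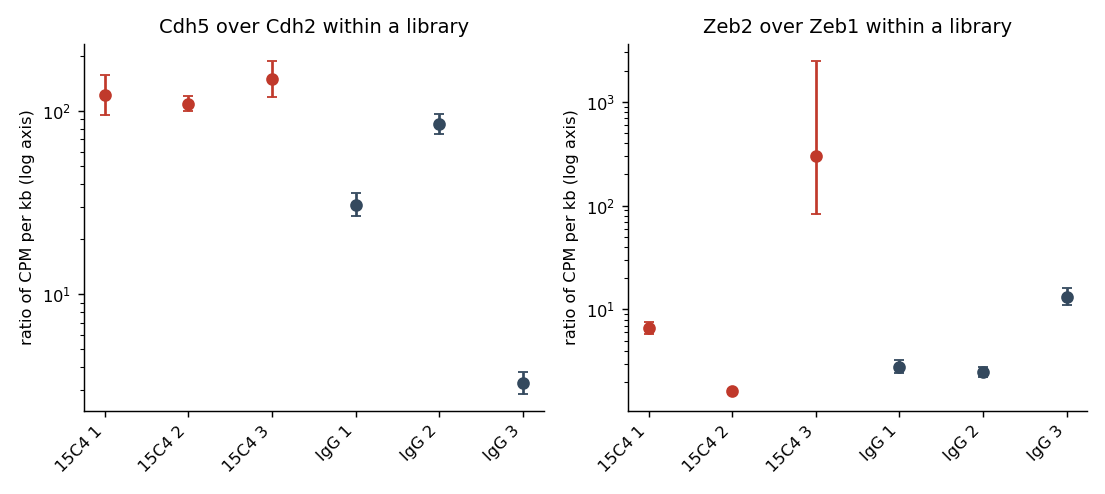
Ratios of CPM per kilobase of exon within each library on log axes, with 95% counting intervals as bars, 15C4 in red and IgG in dark blue. Cdh5 over Cdh2 lies between 110 and 149 in 15C4 and between 3.28 and 84.5 in IgG. Zeb2 over Zeb1 lies above 1 in every library, and its wide interval in 15C4 3 reflects 2 counts of Zeb1.

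Vimentin, the intermediate filament protein of mesenchymal, endothelial and melanoma cells, was by far the most abundant of the set. Vim (chromosome 2, 13573927 to 13582826) ranked 8 of all 24421 symbols by mean CPM. It had 2712, 2869 and 3137 CPM in the 15C4 libraries, against 2368, 2881 and 3303 CPM in the IgG libraries. The IgG libraries held both the lowest and the highest value, and the highest exceeded the lowest 1.39-fold. Means were 2906 ± 215 CPM under 15C4 and 2850.4 ± 468 CPM under IgG (SD, n = 3 each). The fold was 1.09 with a 95% interval from 0.700 to 1.70, the narrowest of the set, and the log2 fold change was -0.0002 without 15C4 3. IgG 3, with the fewest endothelial transcripts, had the highest Vim.

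S100A4, also called FSP1, is a calcium-binding protein of fibroblasts, leukocytes and motile tumour cells. S100a4 (chromosome 3, 90603771 to 90606045) had 26.5, 5.21 and 20.96 CPM in the 15C4 libraries, against 33.4, 8.92 and 47.2 CPM in the IgG libraries. The lowest values came from 15C4 2 and IgG 2 and the highest from IgG 3, so the groups overlapped. Means were 17.6 ± 11.1 CPM under 15C4 and 29.9 ± 19.4 CPM under IgG (SD, n = 3 each), a fold of 0.614 with a 95% interval from 0.151 to 2.498. The log2 fold change of -0.70 (SE 0.89) was -0.17 without IgG 3 and -0.27 without 15C4 2. Macrophage and monocyte markers, 13 in all, added up to 22.6, 76.5 and 0.469 CPM in the 15C4 libraries, against 203, 17.9 and 29.5 CPM in the IgG libraries. The 12 T and NK cell markers added up to 220.3, 5.21 and 21.7 CPM in the 15C4 libraries, against 594.5, 15.1 and 9.08 CPM in the IgG libraries. Neither sum was at its highest in IgG 3, where S100a4 was, and their part was not tested. In GENCODE M21, S100a4 shares 302 of its 584 exon bases with the gene Gm42674 on the same strand, which is not among the counted symbols, so its counts are uncertain to that extent.

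Ordered by level per kilobase, Vim was first in all 6 libraries and S100a4 second in 5, the exception being 15C4 2. This order depends on the lengths used: 584 exon bases for S100a4, 302 of them shared with Gm42674, and 19942 for Zeb2. By CPM, Zeb2 was above S100a4 in every library, at 184 to 364 against 5.21 to 47.2 CPM. Vim averaged 613 ± 45.3 CPM per kilobase in 15C4 and 601 ± 98.7 in IgG, and S100a4 30.09 ± 18.9 in 15C4 and 51.1 ± 33.2 in IgG. Zeb2 followed at 12.9 ± 4.75 in 15C4 and 11.1 ± 1.68 in IgG, and Snai2 at 8.03 ± 7.40 and 9.74 ± 3.96 CPM per kilobase in 15C4 and IgG (SD, n = 3 each). Snai2 was above Zeb2 in 15C4 2 and IgG 2 and below it in the other libraries, and the difference between these genes was not tested. Zeb1, Cdh2, Cdh1 and Snai1 averaged between 1.06 and 3.85 CPM per kilobase in either group, and their order changed from library to library.

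Some of the genes had their highest values in the same libraries. By pan-endothelial sum the order was 15C4 2, IgG 2, IgG 1, 15C4 3, 15C4 1 and IgG 3. Snai1 and Snai2 had their 3 highest values in 15C4 2, IgG 2 and IgG 1, in that order, and Zeb1 had its 3 highest in the same libraries with IgG 1 ahead of IgG 2. The lower ranks differed: IgG 3, with the smallest sum, ranked 4 of 6 for Snai2, above both 15C4 3 and 15C4 1, and 5 of 6 for Snai1 and Zeb1. S100a4 had its lowest values in 15C4 2 and IgG 2 and its highest in IgG 3. Vim and Zeb2 followed neither order. These are 6 libraries that differ in depth as well, and 15C4 2, with the highest Snai1, Snai2 and Zeb1, was the deepest at 19572202 counts. The part of endothelial content or depth in these levels was not tested.

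**Figure D4:**
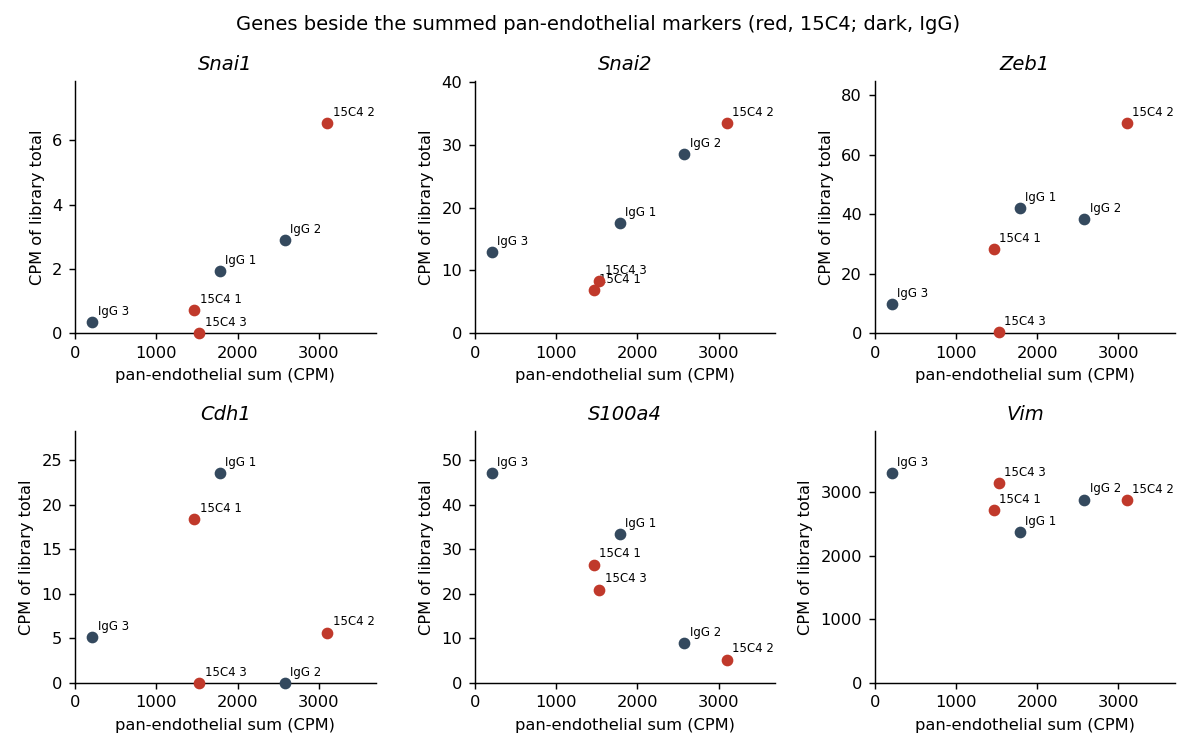
Level of 6 of the genes in each library (CPM, vertical) beside the sum of 18 pan-endothelial markers (CPM, horizontal), with 15C4 in red and IgG in dark blue. Snai1, Snai2 and Zeb1 are highest in 15C4 2, with the largest sum of 3104 CPM, S100a4 is highest in IgG 3, with the smallest sum of 211 CPM, and Vim stays between 2368 and 3303 CPM.

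By likeness over the 6 libraries, the tested genes nearest to Vim were Neu1, Sec61a1 and Hsp90aa1. Likeness was the root mean square difference of log2(CPM + 1) after centring each gene, and it was 0.06 for Neu1, 0.09 for Sec61a1 and 0.10 for Hsp90aa1. A gene with the same level in every library would score 0.15 against Vim and 0.33 against Zeb2, so the match to Vim says little. Among the nearest to Zeb2 were Lancl1 (0.11) and Sgpl1 (0.12). Lancl1 had 64.04, 41.7 and 31.6 CPM in the 15C4 libraries, against 35.6, 29.8 and 48.4 CPM in the IgG libraries. Like Zeb2 it was highest in 15C4 1, which follows from its choice by likeness over these libraries.

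The other transition factors and their partners numbered 15, of which 10 could be fitted, 6 above and 4 below 0, with a median log2 fold change of 0.23. Neither held in every setting: 5 were above 0 with upper quartile factors or library totals, and without 15C4 1, 4 were, with a median of -0.46. The median was also below 0 with limma-voom (-0.10, and -0.14 with sample weights). None passed, and none was separate between the groups, where 9.52% of all tested genes were. Tcf4 and Tcf12, E-proteins that pair with TWIST factors, were the most abundant. Tcf4 was at 444 ± 109 CPM under 15C4 and 355 ± 192 CPM under IgG, with a log2 fold change of 0.43 (SE 0.46), and 0.08 without IgG 3. Tcf12 was at 505 ± 45.4 CPM under 15C4 and 521 ± 53.7 CPM under IgG (0.04, SE 0.27, and below 0 by library totals or upper quartile scaling). Ctbp1 and Ctbp2, co-repressors recruited by ZEB proteins, did not pass either. Ctbp1 averaged 66.5 ± 14.8 CPM under 15C4 and 53.4 ± 2.56 CPM under IgG, and Ctbp2 averaged 84.2 ± 26.0 CPM under 15C4 and 113 ± 26.6 CPM under IgG (SD, n = 3 in each case).

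Of the 19 other cadherins and catenins, 7 could be fitted, and all 7 had fold changes above 0 in the main fit, with a median of 0.34. This did not hold in every setting. Ctnna1 was below 0 with upper quartile factors, library totals, limma-voom or the replicate block, and without 15C4 1 or IgG 3. Ctnnd1 was below 0 without 15C4 1, and Cdh19 without IgG 1 or IgG 2. Without 15C4 2, 4 of the 7 were above 0, with Cdh13, Cdh19 and Ctnna1 below. None passed. Ctnnb1, the beta-catenin that links cadherins to the cytoskeleton and transmits Wnt signals, was at 2945 ± 482 CPM under 15C4 and 2254 ± 506 CPM under IgG (log2 fold change 0.48, SE 0.30). Jup, the related plakoglobin, was at 19.2 ± 6.41 CPM under 15C4 and 11.2 ± 8.43 CPM under IgG (0.89, SE 0.86; 0.57 without IgG 3 and 1.68 without IgG 2; SD, n = 3 in each case). Of the remaining 12, 5 had no count in any library. Cdh2, at -1.03, lay on the other side of 0 from the genes of this list in the fit of all libraries. So did the other cadherin followed here, Cdh1, at -0.27 (SE 2.06), and these differences were not tested.

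Mesenchymal genes downstream of the transition were 19, of which 11 were fitted, 6 above and 5 below 0, with a median of 0.11 and none passing. Without IgG 2, 8 were above 0 with a median of 0.56, and without IgG 3, 5 were with a median of -0.06. Acta2, the smooth muscle actin, had 0, 434 and 206 counts in the 15C4 libraries, against 15, 0 and 8 in the IgG libraries (log2 fold change 4.11, SE 2.20). 15C4 2 and 3 were high and 15C4 1 had none, so the groups overlapped. Fn1, which encodes fibronectin, was at 749 ± 593 CPM under 15C4 and 454 ± 391 CPM under IgG (0.89, SE 1.09; 0.25 without 15C4 3 and 1.59 without IgG 2). Cd44, a hyaluronan receptor, averaged 1562 ± 299 CPM under 15C4 and 1734 ± 358 CPM under IgG (-0.07, SE 0.29; 0.14 without IgG 3). Sparc, which encodes a matricellular protein, averaged 1089 ± 456 CPM under 15C4 and 1075 ± 608 CPM under IgG (0.11, SE 0.53; -0.28 without IgG 3; SD, n = 3 in each case).

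Epithelial genes were almost absent. Of 17, 9 had no count in any library, among them the claudins Cldn3, Cldn4 and Cldn7, and 2 could be fitted. Tjp1, the ZO-1 scaffold that endothelial junctions share, was at 160 ± 67.3 CPM under 15C4 and 141 ± 110 CPM under IgG (SD, n = 3 each; log2 fold change 0.29, SE 0.62). Ovol1, a zinc finger repressor of mesenchymal genes, had 0 counts in each 15C4 library and 6, 79 and 19 in the IgG libraries. It entered the test on its IgG counts alone, so the separation of its groups follows from the filter. With 3 counts over the 15C4 group taken as the floor, the bound on its ratio was 44.98-fold lower there, which is not a measured level. The counting interval allowed a smaller ratio, down to 35.9, and the edgeR interval ran from -13.98 to -2.33 on the log2 scale. On the same floor the bound for Ovol1 was 17.0-fold without IgG 2, 65.7-fold without IgG 3 and 19.4-fold without 15C4 2. Ovol1 did not pass (edgeR quasi-likelihood test, unadjusted p = 0.0135, adjusted p = 0.9997). Since the filter kept it through its IgG counts, its intervals and p are no support for a difference. Of all tested genes, 9.52% were separate between the groups and 2.58% had an unadjusted p under 0.05.

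Among 18 genes of S100 proteins, their partner Anxa2 and intermediate filaments, 12 were fitted, 7 above and 5 below 0, with a median of 0.08. Without 15C4 2, 3 were above 0 with a median of -0.59, without 15C4 3, 8 were with a median of 0.37, and with upper quartile factors or library totals 6 were with a median of -0.02. None passed, and 1 of the 12, or 8.33%, was separate between the groups, against 9.52% of all tested genes. S100a10, which forms a plasminogen-binding complex with annexin A2, had 75.1, 169 and 124 CPM in the 15C4 libraries, against 312, 345 and 204 CPM in the IgG libraries. The groups did not overlap, and all 15C4 values were the lower. The log2 fold change was -1.11 (SE 0.42, unadjusted p = 0.0296), and the adjusted p of 0.9997 in edgeR's test did not pass. Anxa2 had 446, 564 and 126 CPM in the 15C4 libraries, against 467, 618 and 796 CPM in the IgG libraries, which overlapped (-0.67, SE 0.50; -0.28 without 15C4 3). S100a16 had a log2 fold change of -0.65 (SE 0.75; -0.24 without 15C4 3), and S100b, a marker of melanocytic and glial cells, was at 301 ± 185 CPM under 15C4 and 293 ± 63.7 CPM under IgG (SD, n = 3 each; 0.13, SE 0.46).

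**Figure D5:**
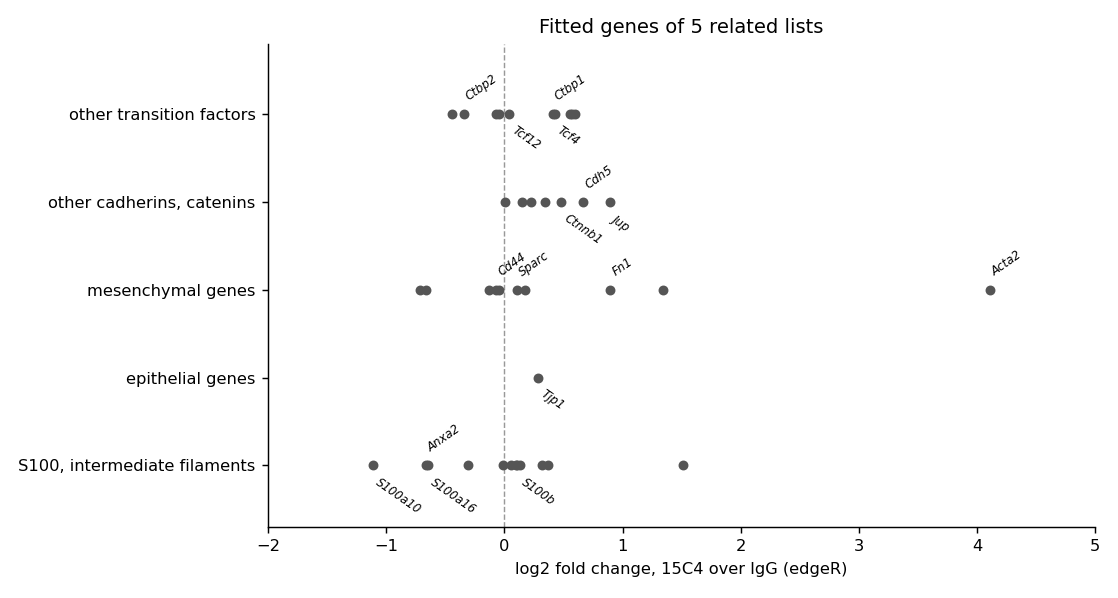
Log2 fold change, 15C4 over IgG, of the fitted genes on 5 related lists, 1 point a gene. Labels mark the genes picked from each list by smallest p or highest mean CPM. Ovol1 is not drawn, since its 15C4 libraries were all at 0. The cadherins and catenins lie above 0 in this fit, the lowest being Ctnna1 at 0.01. Ctnna1, Ctnnd1, Cdh13 and Cdh19 each fall below 0 in some other setting. S100a10 at -1.11 is the lowest point drawn, and none of the genes passed the test.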

How the data were processed

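The authors deposited whole-number counts per gene symbol for each library. The submitters' processing notes name the tools DESeq2, fastp, featureCounts and STAR 2.5b and the builds mm10 and mm9, with no roles. Libraries were Nextera XT libraries of cDNA amplified by PCR, per the labels' protocols. In the authors' series table, counts equalled these for all 24394 symbols spelled alike. Per the file headers it holds normalised values, a score here because they are rounded, a log2 fold change (IgG over 15C4), a p-value and an adjusted p-value.

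CPM are counts over the library total. Tests used edgeR 4.0.16 in R 4.3.3 (TMM, filterByExpr with a minimum count of 10 and a total of 15, quasi-likelihood test, threshold 0.05), with treatment as the only term. SE is the absolute log2 fold change over the square root of F, and 95% intervals use the test's t quantiles. Counting intervals are exact binomial (Clopper-Pearson). Alternatives were 3 scalings, 2 filters, DESeq2 1.42.0, limma 3.58.1 (voom, with and without sample weights), a replicate block and leaving out each library. The tests were run on simulated data first. Levels per kilobase use union exon lengths of GENCODE M21 (GRCm38), and coordinates are from it too. Promoters are from RefSeq.

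The genes and lists were chosen with earlier results of these data known. The text names, from each list, the 3 genes with the smallest p and the 2 with the highest mean CPM, and for Vim and Zeb2 the 3 nearest genes. Of these, 2 genes are not reported or drawn here. Twist2, Snai3, Epcam, Ctnna1, Ctnnd1, Cdh13, Lum, Col1a1, Col3a1, the claudins and Zeb2os were named after their values were seen.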

Additional observations from a re-analysis of the deposited data

How the results depend on the processing

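The count of 0 passing genes held under 13 of 15 alternatives. DESeq2 called 26, and edgeR without a filter called 1, the RIKEN gene 3830403N18Rik, which is not one of the 9. No alternative called any of the 9 or any gene on the 5 lists. Zeb2, Cdh2 and S100a4 kept their sign under all 15 alternatives, with log2 fold changes of 0.03 to 0.42, -1.47 to -0.71 and -1.37 to -0.17. Others turned sign, none of them past the threshold wherever an adjusted p was given (DESeq2 gave none for Snai1), and the cause was not tested. With limma-voom, Snai1 was at -0.12 and Cdh1 at 0.99, and with sample weights Snai2 was at 0.10 and Cdh1 at 0.50. Tcf12 was at -0.058 with upper quartile factors and -0.046 with library totals. With 1 library left out, values ranged from -2.18 to 1.197 for Snai1, -1.25 to 0.22 for Snai2, -1.07 to 0.80 for Zeb1, -1.64 to 1.60 for Cdh1, -0.00023 to 0.28 for Vim, -0.036 to 0.11 for Tcf12, -0.17 to 0.14 for Cd44, -0.28 to 0.36 for Sparc, -0.13 to 1.05 for Tjp1 and -0.50 to 0.40 for S100b. With the replicate number as a block, 0 genes passed, Snai1 was at -0.95, Zeb1 at -1.07 and S100b at -0.040. In that fit 2 of the 8 fitted genes were above 0, with a median of -0.58. Same-numbered libraries had deviations correlated at -0.05, 0.06 and 0.11. 15C4 1 correlated best with IgG 2 (0.09), while 15C4 2 and 15C4 3 each correlated best with the IgG library of the same number. All these values are small and cannot settle whether the numbers pair the libraries. The main fit did not pair them. The median over all genes was 0.01, against 0.04 with RLE factors, -0.09 with upper quartile factors and -0.07 with library totals. Snai1 was not fitted with a mean count of at least 50. The spread limits what could be seen: for Snai1 and Cdh1 the 95% intervals spanned 0.0749 to 31.01-fold and 0.0318 to 21.5-fold.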

Other observations

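Twist1 had no counts in the 6 libraries, yet the authors' deposited table gives it a log2 fold change of 0.145 (IgG over 15C4) with a p of 0.974 and no adjusted p.

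Cdh19, a cadherin of Schwann cells and the melanocyte lineage, chosen after its values were seen, was counted 925, 3180 and 669 times in the 15C4 libraries, against 465, 601 and 2449 in the IgG libraries, with a log2 fold change of 0.15 (SE 0.52). Foxc1, a forkhead factor of mesenchyme and vessels, likewise chosen afterwards, was counted 984, 431 and 0 times in the 15C4 libraries, against 276, 112 and 315 in the IgG libraries (0.57, SE 1.53). 15C4 3 thus had 0 or very few counts of Foxc1, Snai1, Cdh1 and Zeb1, which are named together here because of those counts. Zeros were common in this library: 13.8% of all tested genes were at 0, against 0.278% to 4.55% in each other library. Its Vim level of 3137 CPM was the second highest of the 6.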
